A study of Mus musculus with 6 samples.

Results

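Amino acid transporter genes were compared between mouse embryonic fibroblasts that carry Lpar6 and fibroblasts that lack it. The group holds every annotated gene of the SLC1, SLC7, SLC36, SLC38 and SLC43 families with a probe on the array, and the heavy chain gene Slc3a2, leaving out Slc38a4. Slc3a1, which the rule also names, had no probe assigned to it alone and so was not analysed here. This gave 37 genes with 85 probes, of 19057 named genes and 45281 probes in all. Probes with a detection p under 0.05 on 3 or more of the 6 arrays were kept. This left 24 of the 37 genes, through 38 probes, among 11040 kept genes. The rule uses family names and no measured value, but it was set with earlier results of these data known.

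The cells were embryonic fibroblasts of a mixed 129SV and C57BL/6 strain, and the question was how transcripts differ between the Lpar6+/+ and Lpar6-/- genotypes. Lpar6 encodes a receptor for lysophosphatidic acid. Total RNA of 3 Lpar6+/+ samples (wild type, arrays A to C) and 3 Lpar6-/- samples (knockout, arrays D to F) was hybridised to Illumina bead arrays. Both groups share the strain mix, and no treatment, embryo age or passage is given in the sources used here. The title calls the series a knock-down, whereas the genotype labels name deleted alleles. Nothing in the labels ties the 3 samples of a genotype to separate embryos or cultures, so p-values measure the spread between these samples only, which may be technical.

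Amino acids cross membranes through carriers that exchange one amino acid for another or couple uptake to sodium or protons. Several SLC7 proteins are light chains that reach the cell surface only when bound to a heavy chain of the SLC3 family. When amino acids run short, the kinase GCN2 raises translation of the transcription factor ATF4, which turns on carriers and amino acid synthesis enzymes. Other carriers sit on the lysosome, where they report amino acid supply to the growth kinase mTORC1.

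The targeted gene and the markers were checked first. The Lpar6 probe had intensities of 1373, 1223 and 1278 in the wild type and of 76.7, 77.9 and 76.0 in the knockout, where it was not detected on any array (limma, adjusted p = 1.51e-09). All 10 fibroblast markers were detected on all 6 arrays, and 7 of them rose. Between 19006 and 20137 probes were detected per array. Correlations over the kept probes were at least 0.993 within a genotype and at most 0.968 across genotypes. Markers of other cell types differed too. All 9 kept adipocyte markers, 9 of 10 muscle markers and all 8 kept epithelial markers rose, while all 8 kept neuronal and all 8 kept cartilage markers fell. Of those that rose, 4 adipocyte, 1 muscle and 1 epithelial marker had detected probes in the knockout alone, so that the filter set their direction. Of all 11040 kept genes, 39.7% were called by limma (adjusted p under 0.05), 20.6% higher and 19.1% lower in the knockout. In bulk samples, fewer cells of a type and less RNA per cell cannot be told apart.

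Of the 24 kept amino acid transporter genes, 12 changed in the knockout, 8 higher and 4 lower (limma, adjusted p below 0.05 over all kept probes). This is 50% of the kept members, beside 39.7% of all kept genes. Those higher were 33.3% (20.6% of all genes), and those lower 16.7% (19.1% of all genes). The genes that rose were the cationic carrier gene Slc7a3, the light chain genes Slc7a7, Slc7a11 and Slc7a8, the neutral carrier genes Slc43a1 and Slc1a4, and Slc38a10 and Slc38a7. The genes that fell were the glutamate carrier gene Slc1a1, Slc7a14, and the neutral carrier genes Slc38a2 and Slc38a1. The median change was 0.09 on the log2 scale over the 24 members and 0.027 over all genes. Normalized values of the genotypes did not overlap in 13 of the 24 (54.2%, against 52.8% of all kept genes), namely the 12 called genes and Slc1a3. A change of at least 2-fold was called in 3 members (12.5%, against 6.79% of all genes). Slc7a3 was the 1 that rose (2.39% of all genes), and Slc1a1 and Slc7a14 were the 2 that fell (4.4% of all genes). The detection filter kept Slc1a1 and Slc7a14 only through the wild-type arrays, which fixed their direction. These 2 falls therefore add no support to the shares of members called lower or changed at least 2-fold. Each change is given as a log2 difference of normalized values, knockout minus wild type, with its SE from 3 arrays per genotype. An offset of 16 was added to all values, which makes changes of dim probes smaller. For any single gene, the smallest p of an exact permutation test at this sample size is 0.1 (two-sided).

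**Figure D1:**
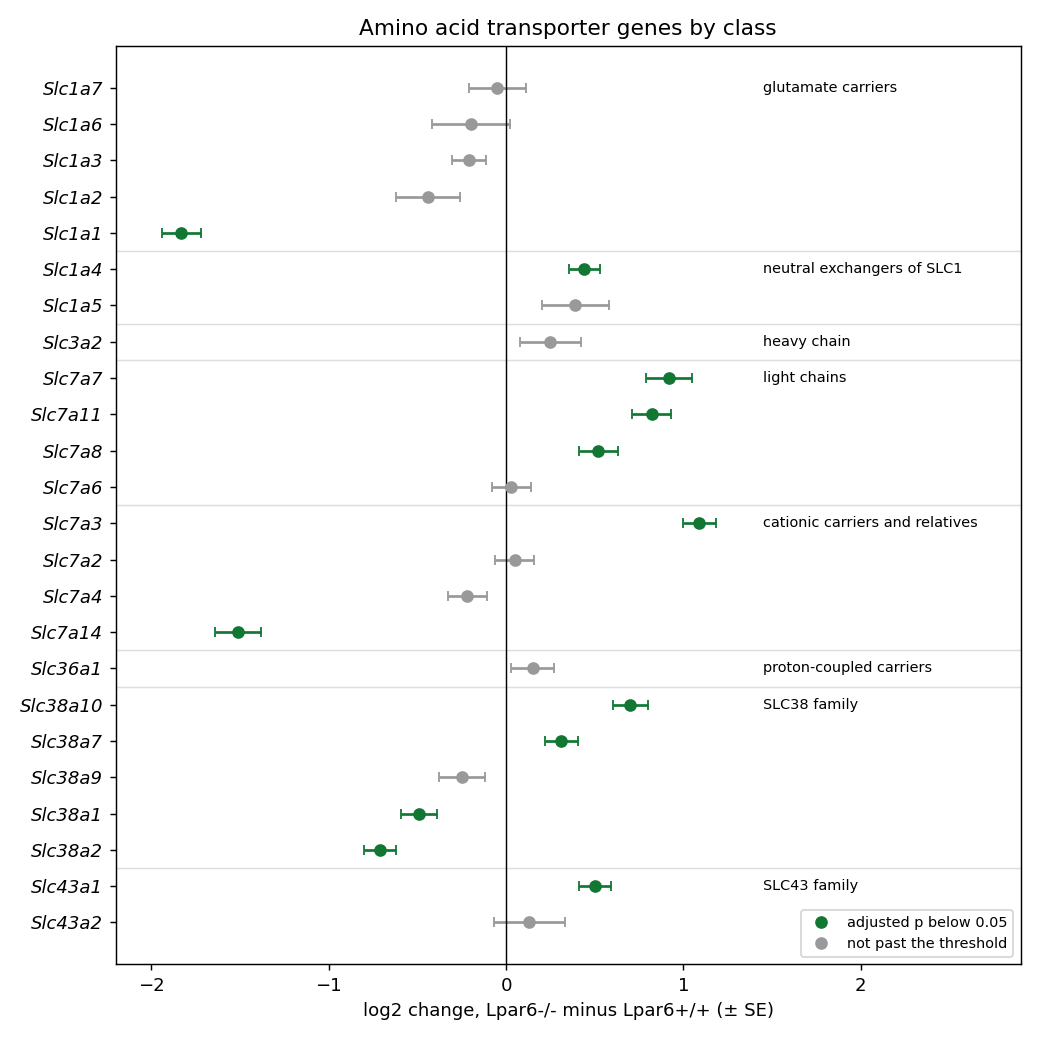
Log2 change (knockout minus wild type, horizontal axis) of each of the 24 kept amino acid transporter genes, grouped by class. Points are changes of the brightest kept probe and bars are SE, with 3 arrays in each group. Green points passed limma's adjusted p of 0.05: 8 lie above 0 and 4 below.

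Promoters of the member genes were read where RefSeq's table held them. The window runs from 250 bases before to 50 bases after each RefSeq start (build GRCm38.p6), and 27 of the 37 member genes had one, with 36 windows in all. The called genes Slc7a3 and Slc38a1 were not among them. The letters TGATGNAA, the core of the element bound by ATF4 with C/EBP partners, were searched on both strands, the other strand reading TTNCATCA. The core was found in 3 of the 27 member genes, Slc7a11, Slc7a7 and Slc1a4, each of which rose. Slc38a10, Slc38a7, Slc43a1 and Slc7a8 also rose and had windows without the core. Over all genes, the core was found in 4.51% of the 27025 genes with a window, and in 3.97% of all 32851 windows. The 3 windows are shown because they hold these letters, which are in capitals; the strand given is that of the gene, and bases are counted from 1 at the 5′ end. Slc7a11 has the core on the gene's strand at bases 185 to 192 and on the other strand at bases 204 to 211. Slc7a7 has it at bases 110 to 117 and at bases 250 to 257, and Slc1a4 on the other strand at bases 247 to 254.
Slc7a11, chr3:50443564-50443863, minus strand: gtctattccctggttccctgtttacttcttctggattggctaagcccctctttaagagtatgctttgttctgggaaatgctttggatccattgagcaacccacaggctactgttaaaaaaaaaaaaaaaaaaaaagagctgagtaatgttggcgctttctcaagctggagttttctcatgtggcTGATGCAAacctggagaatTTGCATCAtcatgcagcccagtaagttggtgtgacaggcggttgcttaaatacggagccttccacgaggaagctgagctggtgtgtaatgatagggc
Slc7a7, chr14:54417895-54418194, minus strand: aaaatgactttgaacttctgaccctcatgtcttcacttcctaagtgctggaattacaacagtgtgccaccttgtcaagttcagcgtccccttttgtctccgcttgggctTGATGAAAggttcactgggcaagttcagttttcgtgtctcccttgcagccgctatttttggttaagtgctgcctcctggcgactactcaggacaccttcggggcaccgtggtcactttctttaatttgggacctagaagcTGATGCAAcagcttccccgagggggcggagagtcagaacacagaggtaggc
Slc1a4, chr11:20332664-20332963, minus strand: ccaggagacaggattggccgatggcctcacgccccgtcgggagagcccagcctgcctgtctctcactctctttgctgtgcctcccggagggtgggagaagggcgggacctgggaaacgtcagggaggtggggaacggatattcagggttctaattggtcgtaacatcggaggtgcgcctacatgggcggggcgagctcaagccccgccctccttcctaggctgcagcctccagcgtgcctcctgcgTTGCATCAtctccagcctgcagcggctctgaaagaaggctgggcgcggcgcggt
Slc7a7 has 5 windows, 2 of which hold the core, and they share the site at bases 250 to 257. The letters TGACNNNGC, the core of the antioxidant element bound by NRF2, were found in 5 of the 27 member genes (Slc36a1, Slc38a2, Slc43a1, Slc7a1 and Slc7a6) and in 14.0% of all genes with a window. Of the genes with the antioxidant core, Slc43a1 rose, Slc38a2 fell, Slc36a1 and Slc7a6 were not called, and Slc7a1 had no kept probe. The matches of both cores describe the letters only. Binding was not measured, and the part of either core in the changes was not tested.

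Among the light chains, 3 of the 4 kept genes rose and none fell, where 20.6% of all kept genes rose and 19.1% fell. Slc7a11 encodes xCT, which takes up cystine for glutathione synthesis in exchange for glutamate. Its brightest probe read 171, 187 and 157 on the wild-type arrays and 218, 227 and 210 on the knockout arrays, so that every knockout array was brighter than every wild-type array. The change was 0.82 ± 0.11 (limma, adjusted p = 0.000403). A further Slc7a11 probe, with intensities of 116 to 133, changed by 0.40 ± 0.15 without passing (adjusted p = 0.0565), and the other 3 probes were not detected on any array. Slc7a7 encodes y+LAT1, which exports cationic amino acids in exchange for neutral ones and sodium. Its brightest probe read 141, 128 and 138 in the wild type and 158, 178 and 177 in the knockout, again with no overlap. Both kept probes rose alike, by 0.92 ± 0.13 (adjusted p = 0.000475) and 0.95 ± 0.13 (adjusted p = 0.000375).

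Slc7a8 encodes the neutral amino acid exchanger LAT2. Its intensities were 174, 164 and 142 in the wild type and 166, 177 and 181 in the knockout. These overlap before normalization and not after it, and the change was 0.52 ± 0.11 (limma, adjusted p = 0.00443). Its dimmer probe was detected on all 3 knockout arrays and on none of the wild-type arrays, a level at least 1.31-fold higher. The filter kept this probe only through the knockout arrays, which fixed its direction, so it adds no support to the rise. For this bound the knockout mean was divided by the wild-type mean, after raising each wild-type value to at least the lowest detected value of its array. The fourth kept light chain gene, Slc7a6, encodes y+LAT2. Its change was 0.03 ± 0.11 (adjusted p = 0.842), with intensities of 190 to 235 in the wild type and 175 to 198 in the knockout. Slc3a2 encodes the heavy chain CD98, which all 4 of these light chains bind. Its only probe was dim, at 114, 103 and 105 in the wild type and 99.1, 114 and 106 in the knockout, and was detected on 2 and 3 arrays. The genotypes overlapped, and the change was 0.25 ± 0.17 (limma, adjusted p = 0.275), which passed only without knockout array D (0.43, adjusted p = 0.0417) among 16 alternatives.

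The 3 light chain rises passed under all 17 alternatives run, but their size depended on the scale. In the deposited log2 values they were 0.52 for Slc7a11, 0.50 for Slc7a7 and 0.30 for Slc7a8. On the same arrays the summed normalized value of 8 kept epithelial markers lay between 900 and 924 in the wild type and between 2413 and 2544 in the knockout. That of 9 kept adipocyte markers rose from 3513 to 4102 in the wild type to 10569 to 12286 in the knockout. Sums of 10 kept muscle markers were 10299 to 10318 in the wild type and 18526 to 19173 in the knockout. Those of 10 fibroblast markers were 42459 to 45646 and 66675 to 68850. Neuronal and cartilage markers fell. Of the epithelial markers Epcam and Krt5, and of the adipocyte markers Fabp4 and Retn, were not detected on any array. The part of such cells in the rises of transporter genes was not tested.

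**Figure D2:**
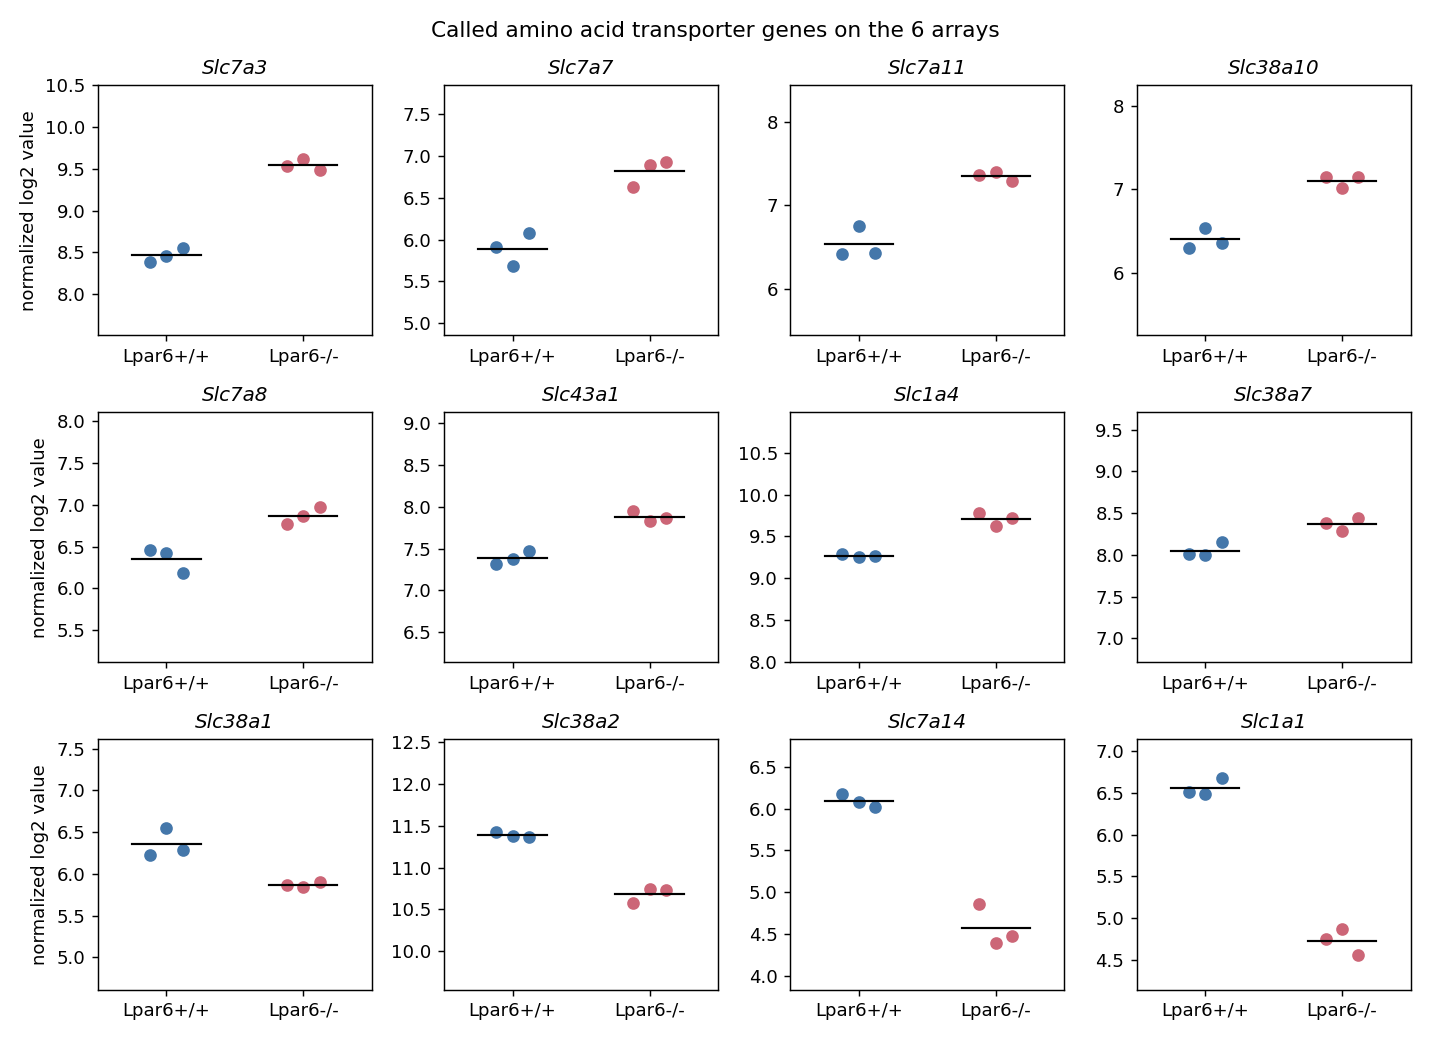
Normalized log2 values (vertical axis, each panel spanning 3 units) of the 12 called members on the 3 wild-type arrays (Lpar6+/+, blue) and the 3 knockout arrays (Lpar6-/-, red), ordered by change. Points are arrays and lines are group means. Panels were chosen by their calls, and in each the points of the genotypes do not overlap, which held for 52.8% of all kept genes. Slc7a3 is at the top of the rises and Slc1a1 at the end of the falls.

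Of the 4 kept cationic carriers and their relatives, 1 rose, 1 fell and 2 did not pass. Slc7a3, on chromosome X, encodes CAT3, a carrier of arginine and lysine. Its brightest probe read 457, 434 and 446 in the wild type and 751, 841 and 750 in the knockout, a clear separation. The change of 1.09 ± 0.091 (limma, adjusted p = 1.92e-05) was the largest rise among the 24 kept members, and over the alternatives it ranged from 0.88 to 1.14. The other Slc7a3 probe was not detected on any array. Slc7a1 encodes the widely expressed carrier CAT1, and neither of its 2 probes was detected on any array (69.9 to 102). Slc7a2, which encodes CAT2, had 1 kept probe of 5, with intensities of 125 to 146 in the wild type and 118 to 133 in the knockout. Its change was 0.05 ± 0.11 (adjusted p = 0.767).

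Slc7a14 encodes a lysosomal member of the SLC7 family known from the nervous system. Its brightest probe read 155, 145 and 135 in the wild type and 96.1, 78.7 and 80.3 in the knockout, where it was not detected on any array. The change, which uses the undetected knockout values, was -1.51 ± 0.13 (limma, adjusted p = 2.2e-05). A second probe gave -1.36 ± 0.14 (limma, adjusted p = 8.42e-05). The bounds were levels at least 2.17-fold and 1.88-fold lower, and were not themselves tested. The detection filter kept Slc7a14 only through the wild-type arrays, which fixed its direction. Slc7a4, a relative of the cationic carriers, read 124 to 154 in the wild type and 117 to 118 in the knockout. Its change was -0.22 ± 0.11 (limma, adjusted p = 0.149), and it passed under median scaling (-0.40, adjusted p = 0.027) and without wild-type array C (-0.33, adjusted p = 0.0477).

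Of the 5 kept carriers of glutamate, Slc1a1 fell and the other 4 did not pass (19.1% of all kept genes fell). Slc1a1 encodes EAAT3, a glutamate and cysteine carrier of neurons and epithelia. Its probe read 177, 168 and 174 in the wild type and 93.4, 94.9 and 83.7 in the knockout, where it was not detected on any array. The change, which uses the undetected knockout values, was -1.83 ± 0.11 (limma, adjusted p = 1.94e-06). The bound was a level at least 3.01-fold lower and was not itself tested. Here too the filter fixed the direction. The other 2 Slc1a1 probes were not detected on any array. In the deposited log2 values, which carry no background correction that could be seen, the changes were -0.82 for Slc1a1 and -0.66 for Slc7a14.

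Slc1a3 encodes GLAST, a glutamate carrier of astrocytes and of some other cells. It read 1233, 1030 and 1067 in the wild type and 844, 844 and 967 in the knockout. Its normalized values did not overlap, but the change of -0.21 ± 0.097 did not pass (adjusted p = 0.11). It did pass in 4 of 17 alternatives, among them the deposited log2 values (-0.20, limma adjusted p = 0.0332). The lowest adjusted p over the 17 was 0.0247 and the highest 0.295. Slc1a2, which encodes GLT-1, the main glutamate carrier of astrocytes, had 1 kept probe of 5. It was detected on 3 wild-type arrays and 1 knockout array, with a change of -0.44 ± 0.18 (limma, adjusted p = 0.0869). It passed under median scaling (-0.54, adjusted p = 0.0318) and without knockout array E (-0.62, adjusted p = 0.0266). Slc1a6 and Slc1a7, which encode glutamate carriers of cerebellum and retina, had intensities of 96.5 to 133 and changes of -0.20 ± 0.22 and -0.05 ± 0.16.

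Neuronal markers moved on the same arrays as Slc1a1 and Slc7a14. The summed normalized value of 8 kept neuronal markers lay between 7691 and 7729 in the wild type and between 1181 and 1239 in the knockout, with all 8 lower and a median change of -2.95. Tubb3 and Snap25 were not detected on any array. Of 3 kept markers of astrocytes and radial glia, 1 fell, and their sum was 777 to 829 in the wild type and 767 to 857 in the knockout. Aqp4, S100b, Sox2 and Pax6 were not detected. All 8 kept cartilage markers fell too, with a sum of 17592 to 17945 in the wild type and 4254 to 4313 in the knockout. All 8 kept epithelial markers rose. The part of neurons or of other cells in the falls of Slc1a1 and Slc7a14 was not tested.

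Of the neutral exchangers of the SLC1 family, Slc1a4 rose. It encodes ASCT1, which carries alanine, serine and cysteine. Its only probe read 787, 694 and 692 in the wild type and 868, 847 and 883 in the knockout, with no overlap. The change was 0.44 ± 0.087 (limma, adjusted p = 0.00356), was called in all 17 alternatives and stayed between 0.38 and 0.47. Slc1a5 encodes the glutamine carrier ASCT2. All 5 of its probes were at or near background, between 76.5 and 112, and the brightest had a change of 0.39 ± 0.19 (adjusted p = 0.133). Its call depended on single arrays: without wild-type array A or knockout array F it passed, with limma adjusted p of 0.037 and 0.0461, and its highest adjusted p was 0.359.

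In the SLC38 family, 2 of 5 kept genes rose and 2 fell (20.6% and 19.1% of all kept genes), and 3 of these 4 calls rested on 1 probe among several. Slc38a2 encodes SNAT2, a sodium-coupled carrier of small neutral amino acids that cells raise when amino acids are scarce. Its brightest probe fell from 3112, 2745 and 2611 in the wild type to 1474, 1786 and 1721 in the knockout. The change was -0.71 ± 0.09 (limma, adjusted p = 0.000268). The other 2 Slc38a2 probes, both also designed on the RefSeq mRNA, did not pass. One read 554, 532 and 391 in the wild type and 453, 527 and 540 in the knockout, with a change of 0.24 ± 0.14 (adjusted p = 0.192). The third read 110 to 121 on all arrays, also with a change of 0.24 (± 0.11, adjusted p = 0.109). With the mean of the 3 probes, the change of Slc38a2 was -0.07 (adjusted p = 0.5), so the direction of the gene as a whole is uncertain.

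Slc38a1 encodes SNAT1, a close relative. Its brightest probe, designed on a cDNA outside RefSeq, read 159, 173 and 148 in the wild type and 122, 121 and 120 in the knockout. The change was -0.49 ± 0.10 (limma, adjusted p = 0.00528). The probe on the RefSeq mRNA had a change of -0.01 ± 0.16 (adjusted p = 0.958), and with the mean of its kept probes Slc38a1 did not pass (-0.18, adjusted p = 0.0986). Slc38a10, a less studied member, rose by its RefSeq probe from 163, 171 and 152 to 196, 188 and 195. The change was 0.70 ± 0.098 (adjusted p = 5e-04). A probe on another cDNA gave -0.16 ± 0.12 (adjusted p = 0.324), and the mean of both did not pass (0.27, adjusted p = 0.0524). In the deposited log2 values both changes were smaller, -0.25 for Slc38a1 and 0.43 for Slc38a10, and both passed.

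The lysosomal members of the SLC38 family had small changes. Slc38a7 encodes a carrier that exports glutamine from lysosomes. It read 369, 339 and 356 in the wild type and 371, 368 and 389 in the knockout, and its normalized values did not overlap. The change was 0.31 ± 0.093 (limma, adjusted p = 0.0248). The call was lost under median scaling (0.20, adjusted p = 0.17) and without wild-type array A or B or knockout array D or F, with adjusted p of 0.0775, 0.0801, 0.0544 and 0.0734. Its lowest adjusted p over 17 alternatives was 0.00515. Slc38a9 encodes a lysosomal arginine sensor for mTORC1. Its brightest probe read 186, 202 and 205 in the wild type and 164, 164 and 145 in the knockout. The change of -0.25 ± 0.13 did not pass (adjusted p = 0.166), except under median scaling (-0.42, adjusted p = 0.0172) and without wild-type array A (-0.38, adjusted p = 0.0488). The proton-coupled lysosomal carrier gene Slc36a1 had a change of 0.15 ± 0.12 (adjusted p = 0.333).

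Of the SLC43 family, Slc43a1 rose by both of its probes. It encodes LAT3, a carrier of large neutral amino acids. The brighter probe read 257, 247 and 250 in the wild type and 291, 284 and 284 in the knockout, without overlap. The changes were 0.50 ± 0.089 (limma, adjusted p = 0.00211) and 0.55 ± 0.086 (adjusted p = 0.00104). Slc43a2, which encodes the related LAT4, had a change of 0.13 ± 0.20 (adjusted p = 0.646) and was detected on 2 wild-type arrays and 1 knockout array.

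Where several probes of a member were kept, they often differed. Of the 11 member genes with more than 1 kept probe, all kept probes were called in 4 (Slc43a1, Slc7a14, Slc7a7 and Slc7a8), though the probes of Slc7a14 and the dimmer one of Slc7a8 were kept through 1 genotype only. Only the brightest was called in 4 others (Slc38a1, Slc38a2, Slc38a10 and Slc7a11), and no probe in 3 (Slc1a5, Slc38a9 and Slc43a2). Over probes, 16 of the 38 kept were called, 11 higher and 5 lower, where 37.9% of all kept probes were called. The remaining 4 called genes, Slc1a1, Slc1a4, Slc38a7 and Slc7a3, had 1 kept probe each.

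**Figure D3:**
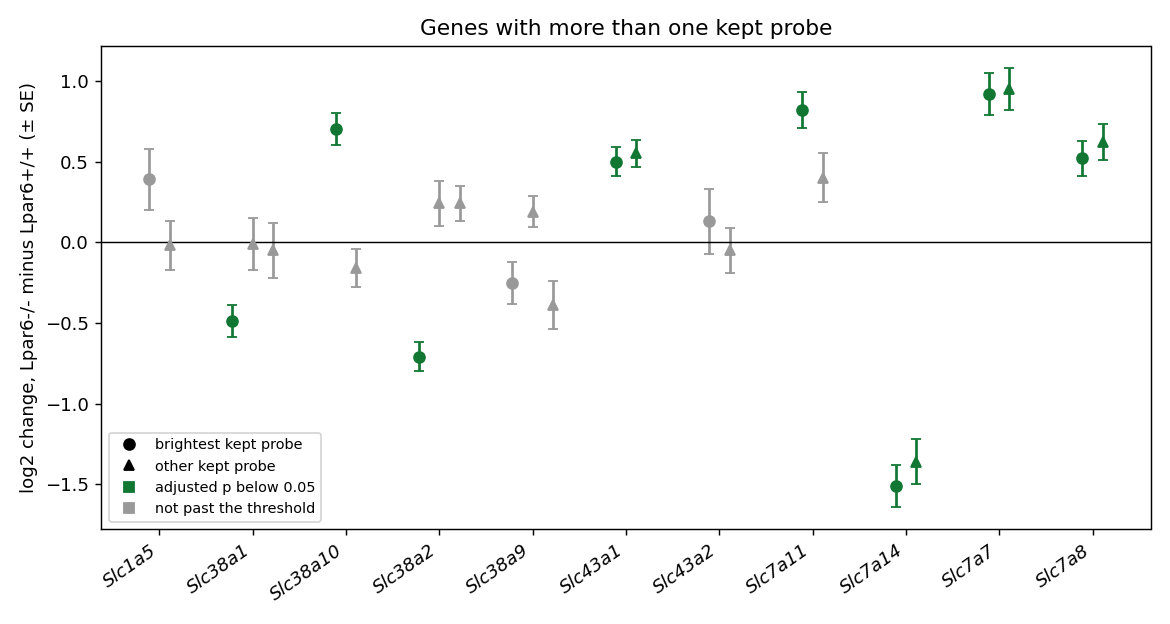
Log2 change (knockout minus wild type, vertical axis) of every kept probe of the 11 member genes with more than 1 kept probe. Circles are the brightest probe of each gene, triangles the others, bars SE with 3 arrays in each group, and green marks an adjusted p below 0.05. The probes of Slc38a2 lie at -0.71, 0.24 and 0.24, while those of Slc7a7 lie together at 0.92 and 0.95.

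No probe was kept for 13 member genes, whose 22 probes had intensities between 68.5 and 113. The lowest intensity called detected was 94.2 to 104, depending on the array. For 9 of the 13 no probe was detected on any array: Slc7a1, Slc7a9, Slc7a12, Slc7a15, Slc36a2, Slc38a3, Slc38a8, Slc38a11 and Slc43a3. Slc36a2 encodes a proton-coupled carrier known as a surface marker of brown fat cells, and its probe read 83.0 to 96.2 in the wild type and 80.3 to 94.7 in the knockout. The other 4, Slc7a10, Slc7a13, Slc36a3 and Slc38a5, were detected on 1 or 2 arrays. Slc7a10 encodes Asc-1, a carrier of small neutral amino acids found in neurons and fat cells. It read 91.1, 82.1 and 95.4 in the wild type and 97.8, 99.7 and 95.6 in the knockout, and was detected on 2 knockout arrays. Its values did not overlap but lay near background, and the bound was a level at least 1.08-fold higher in the knockout. The detection filter left it out of the calls above. Without that filter all 37 members were tested, and the 8 called higher were the same as above. Slc7a10 was thus not called there either. For the 9 genes with no detected probe, a difference was not detectable here.

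Related genes were read from 5 lists. In the list of the GCN2 and ATF4 amino acid response, 15 of 22 kept genes rose and none fell, with a median change of 0.74; over all kept genes 20.6% rose and the median was 0.027. No member of the transporter group is on that list, which was chosen with earlier results of these data known. The largest rises were in Trib3 (2.31 ± 0.11), an inhibitor of ATF4, Nupr1 (1.52 ± 0.095), Chac1 (1.35 ± 0.098), which breaks down glutathione, and the serine synthesis gene Phgdh (1.26 ± 0.095). The transcript of Atf4 itself rose by 0.43 ± 0.086 (limma, adjusted p = 0.00375). Eif2ak4, which encodes GCN2, was not detected on any array. With the deposited log2 values 16 genes of this list were higher and 2 lower.

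In the other 4 lists genes were called in both directions, and the counts are to be read against the 20.6% of all kept genes that rose and the 19.1% that fell. Of 17 kept carriers of amino acids outside the families above, 3 rose and 6 fell, with a median change of -0.11. The largest falls were in the vesicular carriers of glutamate and of inhibitory transmitters, Slc17a6 (-2.97 ± 0.11) and Slc32a1 (-2.75 ± 0.11), and in Slc6a15 (-1.19 ± 0.13), a neutral carrier of brain. The glycine carrier gene Slc6a9 rose by 0.89 ± 0.12. Neuronal markers, given above, fell on the same arrays, and their part was not tested. Of 28 kept genes of amino acid sensing by mTORC1, 4 rose and 6 fell, with a median change of -0.04. Rragb, a Rag GTPase gene, changed most (-0.68 ± 0.09).

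Of 8 kept genes of glutathione synthesis and cystine use, 3 rose and 1 fell, with a median of 0.19. Gclm, which encodes the regulatory subunit of the rate-limiting enzyme of glutathione synthesis, rose by 0.57 ± 0.10 (limma, adjusted p = 0.0021). The thioredoxin reductase gene Txnrd1 rose by 0.49 ± 0.10 (adjusted p = 0.00536) and Ggct, which breaks down glutathione intermediates, by 0.47 ± 0.15 (adjusted p = 0.0336). Txnrd1 lay near background, at 96.7 to 113 in the wild type and 106 to 114 in the knockout. Intensities of Gclm, Txnrd1 and Ggct overlapped before normalization and not after it. The peroxidase gene Gpx1 fell by 0.45 ± 0.10 (adjusted p = 0.00662). Of 20 kept genes of amino acid breakdown and use, 9 rose and 5 fell, with a median of 0.30. Bcat1, the cytosolic transaminase of branched-chain amino acids, rose by 1.26 ± 0.12. The mitochondrial arginase gene Arg2 was not detected on any knockout array and was at least 1.62-fold lower; the filter kept it only through the wild-type arrays, which fixed its direction. Arg1, the liver arginase gene, is among the 9 that rose and was kept only through the knockout arrays. Gpt2, the mitochondrial alanine transaminase, rose by 0.93 ± 0.11 (adjusted p = 0.000204), and Srr, the serine racemase gene, fell by 0.90 ± 0.12 (adjusted p = 0.000357).

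**Figure D4:**
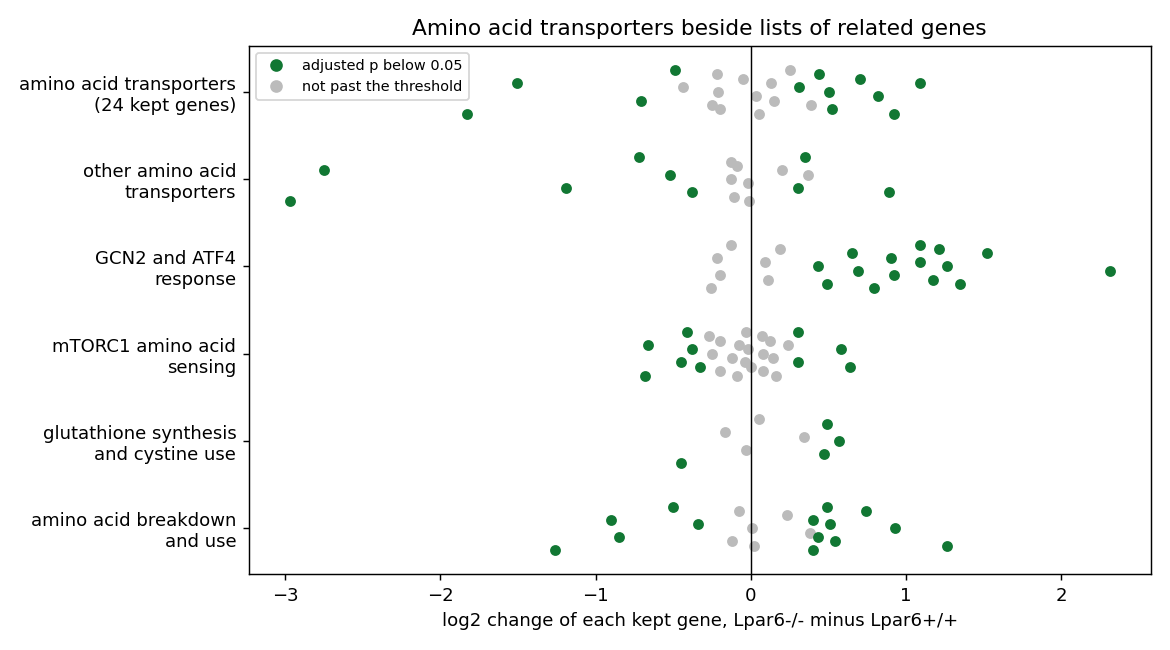
Log2 change (knockout minus wild type, horizontal axis) of each kept gene, for the 24 kept amino acid transporter genes and for 5 lists of related genes. Each point is 1 gene by its brightest kept probe, spread vertically for legibility, and green marks an adjusted p below 0.05. In the GCN2 and ATF4 list 15 of 22 genes lie above 0 in green and none below, while the transporters lie on both sides, 8 above and 4 below. Members and lists were chosen with earlier results of these data known.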

How the data were processed

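The authors deposited probe intensity values without normalization, and beside each array its detection p-value, per the file headers. A second deposited table holds log2 values; limma is the tool in the submitters' processing notes, with no version. Its background correction and normalization were not given in the sources used here. Their group means differed by at most 0.0039 from log2 intensities that were quantile-normalized with no background step, and their column medians were all 6.54, so scale, centring and direction are known. The intensity columns name genotype and letter, with no replicate number.

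Intensities were background-corrected (normexp, negative controls inferred from detection p), quantile-normalized and log2-transformed after adding an offset of 16 (neqc, limma 3.58.1, R 4.3.3). Of 45281 probes, 19802 were kept (43.7%). Probe names came from the platform annotation of GEO (34885 with 1 symbol, 18 with several, 10378 with none), with symbols checked through Entrez IDs in RefSeq's GRCm38.p6 table (34807 matched, 0 differed). A gene took its brightest kept probe. Tests were lmFit and eBayes of limma (degrees of freedom 4 residual, 5.27 prior). P-values were adjusted by Benjamini and Hochberg's method across the kept probes. The steps were tested on simulated data. Bounds set the brighter group's mean against the lowest detected values. Every kept member is named, with intensities for the called ones. From each list of related genes at most 4 called genes of largest change are named; Atf4 and Eif2ak4 are named outside this rule, after their values were seen, as are Arg1 and marker genes not detected on any array. Lists, like the members, were chosen with earlier results of these data known. The number of arrays limits the precision.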

Additional observations from a re-analysis of the deposited data

How the results depend on the processing

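Of the 12 calls, 8 held under every alternative run (Slc1a1, Slc1a4, Slc43a1, Slc7a11, Slc7a14, Slc7a3, Slc7a7 and Slc7a8; with detection asked on all 6 arrays Slc1a1 and Slc7a14 were not tested), and Slc38a1, Slc38a2, Slc38a7 and Slc38a10 lost theirs in at least 1. No called gene changed sign, though the detection filter had fixed the direction of Slc1a1 and Slc7a14. The members called lower numbered 4, against 7 under median scaling, 2 with detection p below 0.01 on all 6 arrays, which tests 16 members, and 2 with the mean of a gene's kept probes; those called higher numbered 7 or 8 in every setting. Leaving out each array in turn gave 7 to 8 higher and 4 to 5 lower. Median scaling moved the split of all called genes from 51.9% higher to 39.4% (1635 higher and 2511 lower, against 2273 and 2106) and the median change of all genes from 0.027 to -0.048. At an adjusted p of 0.01, 1430 genes were higher. Some uncalled members changed sign: under median scaling Slc36a1 (-0.03), Slc7a2 (-0.13) and Slc7a6 (-0.13), under cyclic loess Slc7a6 (-0.02), and without 1 array Slc1a7 (-0.23 to 0.04), Slc1a6 (-0.46 to 0.08), Slc7a2 (-0.03 to 0.14) and Slc7a6 (-0.03 to 0.13). Under median scaling the lists had 1 other carrier higher, 1 GCN2 and ATF4 gene lower, 2 mTORC1 genes higher and 0 glutathione genes lower; with the deposited log2 values 2 GCN2 and ATF4 genes were lower. The cause was not tested. The letters of the intensity columns carry no number, so the replicate numbers could be used as a block only with the deposited log2 values, where 8 members were higher and 5 lower with the replicate block and without it. Deviations of same-numbered samples correlated between -0.054 and 0.02, so no shared deviation was visible. With 3 samples per genotype, these values cannot settle whether the numbers pair the samples. Many members are near background, which limits their changes: 36 of 85 probes were detected on no array.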
